A study of Mus musculus with 24 samples.

Results

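Nfe2l2 encodes NRF2, the transcription factor that switches on antioxidant and detoxifying genes. The mRNA of Nfe2l2 and of 9 genes whose products act on NRF2 or on its DNA site (Keap1, Cul3, Sqstm1, Bach1, Bach2, Maff, Mafg, Mafk and Nfe2l1) was followed in cultured mouse macrophages. The 10 genes were taken by symbol, as a list of NRF2 and its known regulators, and each had 1 row among the 35770 gene names of the deposited expression table. All 10 passed the filter used for testing, a level above 1 TPM in at least 3 of the 24 libraries; Bach2 was above 1 TPM in 4 libraries and each of the other 9 in 24. TPM, the share of all transcripts that a gene takes, is corrected for transcript length, so levels can be set side by side between genes. The table is named as length-scaled counts, but each column has the fixed sum of TPM, and all 63796 values above 0 of genes with 1 annotated transcript have at most 6 significant digits, the precision at which kallisto writes TPM, so the values were read as sums of that TPM with no length multiplied back in. The libraries were made from poly-A RNA of bone marrow-derived macrophages (BMDMs) of C57BL/6 mice, differentiated with M-CSF, and formed 8 groups of 3. The BMDMs were kept in control media, which had stood for 48 h without cells, or in 75% conditioned media (CM) from LL2 (Lewis lung carcinoma) cells that were wild type (WT CM), KEAP1 KO (KEAP1 KO CM) or NRF2 KO (NRF2 KO CM). To each medium either vehicle or 100 nM CDDO-Me (bardoxolone methyl), a synthetic triterpenoid that activates NRF2, was added for 24 h. The knockouts were made with CRISPR plasmids in the cancer cells, which only gave the medium. No macrophage gene was deleted, so Keap1 and Nfe2l2 in these libraries are those of unedited BMDMs and do not check the knockouts. The methods call the 3 samples of a group independent but do not say whether they came from separate mice, and p-values measure only the spread between these samples.

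KEAP1 is the adaptor that hands NRF2 protein to a ubiquitin ligase built on CUL3, which keeps NRF2 low in resting cells; electrophiles such as CDDO-Me react with cysteines of KEAP1, and NRF2 then builds up. SQSTM1 (p62), a receptor for selective autophagy, binds KEAP1 and can take it away from NRF2. NRF2 binds antioxidant response elements as a pair with a small Maf protein (MAFF, MAFG or MAFK), and BACH1 and BACH2, which repress, pair with the same small Mafs at the same sites; in macrophages BACH1 is best known for holding down Hmox1. NFE2L1 is a relative of NRF2 that is made at the endoplasmic reticulum and drives proteasome genes. NRF2 is set largely by protein turnover, and the libraries measured mRNA, not protein.

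The proximal promoters of the 10 genes (250 bases before to 50 bases after the transcript start, RefSeq, mouse assembly GRCm38.p6) were all found and were searched on both strands for TGACNNNGC, the core letters of an antioxidant response element. The core was present in 4 of the 10, in Nfe2l2, Maff, Mafg and Mafk. Of 27025 genes with such windows 14.0% held it, as did 17.1% of the 9987 genes that were also tested for expression. The AP-1 letters TGACTCA, which can overlap this core, were in 0 of the 10 members and in 5.95% of all genes. The 4 stretches are shown because Nfe2l2 and the small Mafs are themselves the partners that bind such letters; capitals mark the match, each is written 5′ to 3′ on the strand of its gene, and each ends before the transcript start. The letters in Mafg and Mafk run on the opposite strand.
Nfe2l2: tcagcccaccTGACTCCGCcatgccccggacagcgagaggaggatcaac
Maff: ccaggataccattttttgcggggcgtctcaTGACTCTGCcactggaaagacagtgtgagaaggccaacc
Mafg: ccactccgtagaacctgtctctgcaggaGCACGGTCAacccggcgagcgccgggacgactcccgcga
Mafk: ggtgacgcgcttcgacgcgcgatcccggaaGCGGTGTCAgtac
Each whole promoter window matched 1 place on its own chromosome in the assembly GRCm39, the build of the deposited table. The stretches were placed from that match, and other chromosomes were not searched. The Nfe2l2 stretch lies at chr2:75535209-75535257 on the minus strand, upstream of the annotated gene, where exons of E030042O20Rik and Gm75256 are annotated, and its match covers positions -240 to -232 from the start. The Maff stretch at chr15:79230679-79230747 on the plus strand, with the match at -112 to -104, overlaps an exon of Gm62234. The Mafg stretch at chr11:120524557-120524623 on the minus strand, with the match at -222 to -214, overlaps an exon of Gm17586. The Mafk stretch at chr5:139777248-139777290 on the plus strand, with the match at -13 to -5, lies inside Mafk as annotated, with 27 of its 43 bases in a Mafk exon. Keap1, Cul3, Sqstm1, Bach1, Bach2 and Nfe2l1 held no such letters in their windows. In the GENCODE annotation of GRCm39 the genes lie at chr2:75504739-75534985 (Nfe2l2, minus strand), chr9:21141026-21150679 (Keap1, minus strand), chr1:80242639-80318537 (Cul3, minus strand), chr11:50089572-50107684 (Sqstm1, minus strand) and chr16:87495782-87530234 (Bach1, plus strand), and at chr4:32238714-32586108 (Bach2, plus strand), chr15:79230821-79243276 (Maff, plus strand), chr11:120515942-120524530 (Mafg, minus strand), chr5:139776804-139788408 (Mafk, plus strand) and chr11:96705767-96720813 (Nfe2l1, minus strand).

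The third replicates of NRF2 KO CM/vehicle and NRF2 KO CM/CDDO-Me listed 15702 and 16299 genes above 0, against 17817 to 18993 in the other 22, and mitochondrial genes took 9.87% and 4.74% of their TPM, against 1.54% to 3.32%. The members stood apart there too: Keap1 was at 15.1 and 29.2 TPM (35.8 to 64.1 TPM in the other 22), Cul3 at 163 and 125 TPM (50.02 to 81.0 TPM), and Nfe2l2 at 459 and 255 TPM (90.6 to 286 TPM). Why these libraries differ was not tested, and TPM values keep no record of read depth. Because 1 estimate of spread is shared by all groups, these libraries touch every test, so counts of members called are given with all 24 libraries and, where they changed, again without these 2. The first replicate of KEAP1 KO CM/CDDO-Me also stood off from its group in Nfe2l2, Sqstm1 and Maff, with values given at those genes.

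**Figure D1:**
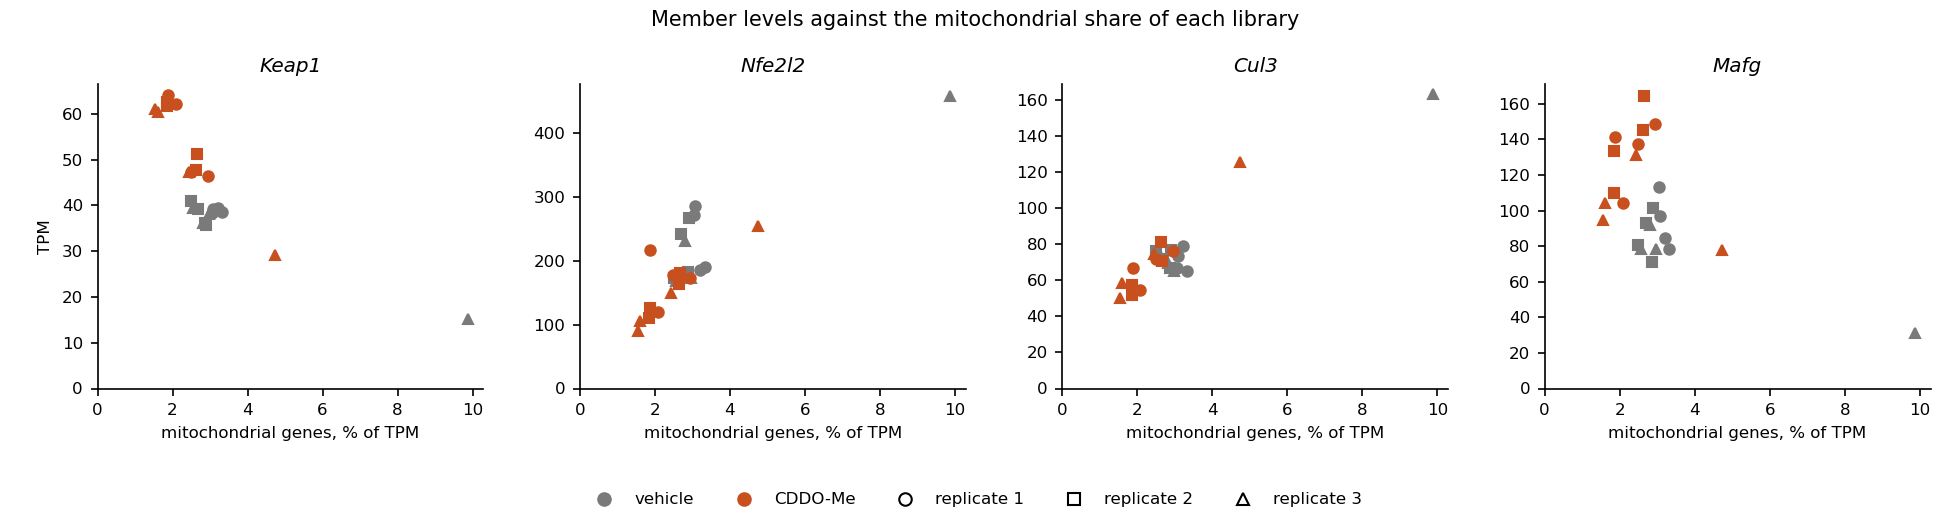
TPM of Keap1, Nfe2l2, Cul3 and Mafg (y axes) against the percentage of TPM from mitochondrial genes (x axes), 1 point a library (n = 24), colored by treatment and shaped by replicate number. The triangles at 9.87% (NRF2 KO CM/vehicle) and 4.74% (NRF2 KO CM/CDDO-Me) are the 2 libraries that stand apart, with the lowest Keap1 (15.1 and 29.2 TPM) and the highest Cul3 (163 and 125 TPM).

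All 7 macrophage markers were above 0 in every library, with a summed level of 14888 to 38321 TPM. Of the lists for other cells, the fibroblast list summed to 284 to 3159 TPM, the neutrophil list to 9.79 to 71.0 TPM, the mast cell or basophil list to 0.601 to 21.8 TPM, the T cell list to 4.20 to 17.0 TPM, the epithelial or carcinoma list to 0.214 to 9.23 TPM and the B cell list to 0.536 to 2.65 TPM, with Pax5 at 0 in 17 libraries and Ly6g at 0 in 19. The dendritic cell list summed to 100.2 to 127 TPM in WT CM/CDDO-Me and 46.9 to 86.1 TPM in KEAP1 KO CM/CDDO-Me, and to 0.724 to 1.94 TPM in every other group; Clec9a reached 123 TPM while Flt3, also on that list, reached 0.239 TPM. The fibroblast sum with vehicle and with CDDO-Me was 819 to 1765 and 332 to 883 TPM in WT CM, 1165 to 2287 and 284 to 1211 TPM in KEAP1 KO CM, 1152 to 2061 and 967 to 2561 TPM in control media and 945 to 3159 and 516 to 2092 TPM in NRF2 KO CM, with overlap in each medium; of its 8 genes 1 (Pdgfra) was called lower with CDDO-Me in WT CM and in KEAP1 KO CM. The part of these other cells in the member levels was not tested, and in bulk RNA fewer cells of a type cannot be told apart from less RNA per cell.

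CDDO-Me moved most of the 10 genes in the same direction in every medium where a call was made: Sqstm1, Keap1, Bach1 and the small Mafs rose, and Nfe2l2 itself fell when the 4 media were averaged. Over the mean of the 4 media 6 members rose (Keap1, Bach1, Maff, Mafg, Mafk and Sqstm1) and 2 fell (Nfe2l2 and Bach2) at an adjusted p under 0.05 in limma, against 18.7% of the 13661 genes tested that rose and 19.5% that fell. The median log2 fold change of the 10 members was 0.57, and that of all genes was -0.01. In control media 1 member rose (Sqstm1), with 3.07% of all genes higher and 2.94% lower. In WT CM 5 rose (Keap1, Bach1, Maff, Mafk and Sqstm1), with 13.9% of genes higher and 13.9% lower. In KEAP1 KO CM the same 5 and Mafg rose, with 14.5% higher and 14.2% lower, and in NRF2 KO CM 2 rose (Mafg and Sqstm1), with 4.49% higher and 5.28% lower. None of the 4 single media called a member lower, although Nfe2l2 had an unadjusted p under 0.05 in 3 of them.

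Without the 2 libraries that stand apart, the calls grew in every medium. In control media 6 members were then called (Nfe2l2 lower; Keap1, Bach1, Maff, Mafg and Sqstm1 higher; 15.6% of 13562 genes called in either direction), in WT CM 9 (all but Bach2; 43.7%), in KEAP1 KO CM 7 (Keap1, Bach1, Maff, Mafg, Mafk, Nfe2l1 and Sqstm1; 45.3%), in NRF2 KO CM 3 (Keap1, Mafg and Sqstm1; 9.97%) and over the mean of the media 9 (all but Cul3; 51.5%). These shares of all genes grew as well, so a count of members has to be read against its own background.

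**Figure D2:**
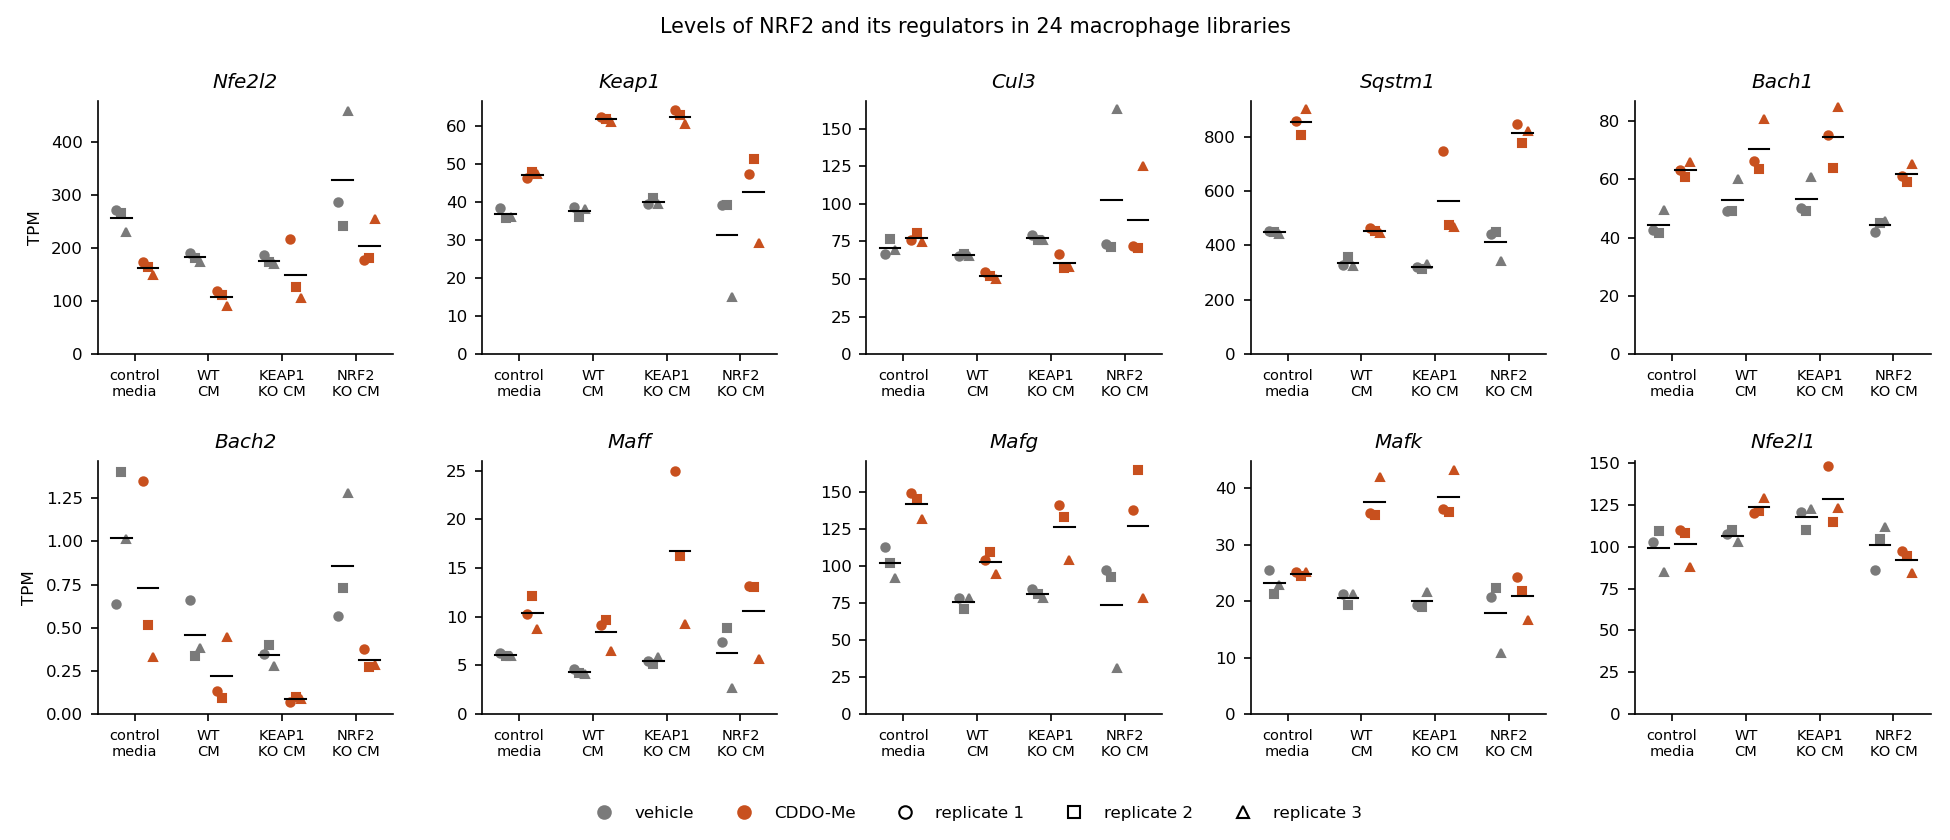
TPM (y axes, from 0) of the 10 members in 24 libraries, by medium (x axes) and treatment (gray, vehicle; orange, CDDO-Me); shapes give the replicate number and black bars the mean of 3. Sqstm1 in control media went from 443 to 454 TPM with vehicle to 807 to 902 TPM with CDDO-Me, and Mafk reached 35.3 to 43.3 TPM only with CDDO-Me in KEAP1 KO CM and in WT CM.

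Nfe2l2 mRNA fell with CDDO-Me over the mean of the 4 media. In control media it was at 272, 267 and 231 TPM with vehicle and at 173, 164 and 149 TPM with CDDO-Me. In WT CM it was at 191, 182 and 173 TPM with vehicle and at 119.6, 111 and 90.6 TPM with CDDO-Me. In both media the 3 treated libraries lay below the 3 vehicle libraries. BMDMs in KEAP1 KO CM had it at 186, 173 and 169 TPM with vehicle and at 217, 127 and 105 TPM with CDDO-Me, so the groups overlapped through the first treated replicate. For NRF2 KO CM the values were 286, 242 and 459 TPM with vehicle and 178, 181 and 255 TPM with CDDO-Me, and the third replicate was the highest of each group. Averaged over the 4 media Nfe2l2 fell by 0.52 ± 0.13 (SE, adjusted p = 0.0033) on the log2 scale. The single-medium log2 fold changes were -0.65 ± 0.26 (SE, adjusted p = 0.189) in control media, -0.66 ± 0.26 (SE, adjusted p = 0.0709) in WT CM, -0.13 ± 0.26 (SE, adjusted p = 0.788) in KEAP1 KO CM and -0.65 ± 0.26 (SE, adjusted p = 0.148) in NRF2 KO CM. Without the 2 libraries the change was called in control media, at -0.64 (adjusted p = 0.022), and in WT CM, at -0.61 (adjusted p = 0.00973), but not in KEAP1 KO CM, at -0.10 (adjusted p = 0.68), or NRF2 KO CM, at -0.52 (adjusted p = 0.169).

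The group means of Nfe2l2 ran from 329 ± 115 TPM in NRF2 KO CM/vehicle (SD, n = 3) through 256 ± 22.4 in control media/vehicle, 204 ± 44.0 in NRF2 KO CM/CDDO-Me, 182 ± 8.93 in WT CM/vehicle, 176 ± 8.88 in KEAP1 KO CM/vehicle, 162 ± 12.2 in control media/CDDO-Me and 149.7 ± 59.2 in KEAP1 KO CM/CDDO-Me to 107 ± 14.9 TPM in WT CM/CDDO-Me. Each group overlapped the next in this order. Without the third replicate NRF2 KO CM/vehicle averaged 264 TPM, near control media/vehicle.

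Keap1, the substrate adaptor, rose with CDDO-Me in WT CM and KEAP1 KO CM. Over the mean of the 4 media Keap1 rose and Nfe2l2 fell. With all 24 libraries Nfe2l2 was not called in any single medium, and in KEAP1 KO CM it was at -0.13. In control media Keap1 was at 38.3, 35.8 and 36.1 TPM with vehicle and 46.4, 47.8 and 47.4 TPM with CDDO-Me. In WT CM it was at 38.6, 36.1 and 38.1 TPM and 62.2, 61.7 and 61.0 TPM, and in KEAP1 KO CM at 39.5, 41.0 and 39.5 TPM and 64.1, 62.7 and 60.4 TPM. In these 3 media every treated library was above every vehicle library, and the treated values in both cancer cell media were 60.4 TPM or more. In NRF2 KO CM Keap1 was at 39.1, 39.3 and 15.1 TPM with vehicle and 47.2, 51.3 and 29.2 TPM with CDDO-Me; the first and second replicates were higher with the drug, and the third replicates were the lowest of all 24 libraries. The log2 fold change was 0.81 ± 0.20 (SE, adjusted p = 0.0038) in WT CM and 0.80 ± 0.20 (SE, adjusted p = 0.00407) in KEAP1 KO CM, against 0.36 ± 0.20 (SE, adjusted p = 0.431) in control media and 0.52 ± 0.20 (SE, adjusted p = 0.118) in NRF2 KO CM, where it was 0.16 without the third vehicle replicate and 0.72 without the first. Without the 2 libraries all 4 media were called, at 0.37 (adjusted p = 7.37e-05) in control media, 0.85 (adjusted p = 3.25e-10) in WT CM, 0.82 (adjusted p = 5.58e-10) in KEAP1 KO CM and 0.35 (adjusted p = 0.0012) in NRF2 KO CM. The call in KEAP1 KO CM was lost with no scaling between libraries (0.63, adjusted p = 0.0517).

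Cul3, the scaffold of the ligase, did not pass the test for CDDO-Me in any medium. It was at 66.8, 76.7 and 69.4 TPM in control media/vehicle and 76.2, 81.0 and 74.4 TPM in control media/CDDO-Me. In WT CM it was at 65.3, 66.8 and 65.3 TPM with vehicle and 54.4, 52.0 and 50.02 TPM with CDDO-Me, and in KEAP1 KO CM at 79.1, 76.3 and 76.0 TPM and 66.5, 57.5 and 58.2 TPM. In both of these media the treated libraries lay below the vehicle libraries without overlap. In NRF2 KO CM the values were 73.5, 71.5 and 163 TPM and 71.7, 70.7 and 125 TPM, with the third replicate far above the others in both. The log2 fold changes were 0.13 ± 0.28 (SE, adjusted p = 0.967) in control media, -0.22 ± 0.28 (SE, adjusted p = 0.644) in WT CM, -0.17 ± 0.28 (SE, adjusted p = 0.722) in KEAP1 KO CM and -0.14 ± 0.28 (SE, adjusted p = 0.855) in NRF2 KO CM. Without the 2 libraries Cul3 was called lower in WT CM, at -0.18 (adjusted p = 0.0374), and not in KEAP1 KO CM, at -0.15 (adjusted p = 0.0808).

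Sqstm1, which encodes the autophagy receptor p62, was the only member that passed the test for CDDO-Me in each of the 4 media with all 24 libraries, and it rose in each. In control media it was at 454, 449 and 443 TPM with vehicle and 856, 807 and 902 TPM with CDDO-Me. In WT CM it was at 326, 355 and 323 TPM and 465, 453 and 445 TPM, and in KEAP1 KO CM at 319, 314 and 331 TPM and 748, 476 and 468 TPM. BMDMs in NRF2 KO CM had it at 442, 450.5 and 344 TPM and 844, 777 and 822 TPM. No treated library overlapped the vehicle libraries of its medium, while treated libraries in WT CM lay near the vehicle libraries in control media. The log2 fold change was 0.93 ± 0.14 (SE, adjusted p = 0.00026) in control media, 0.55 ± 0.14 (SE, adjusted p = 0.00567) in WT CM, 0.95 ± 0.14 (SE, adjusted p = 2.93e-05) in KEAP1 KO CM and 0.99 ± 0.14 (SE, adjusted p = 9.11e-05) in NRF2 KO CM. Without the first replicate of KEAP1 KO CM/CDDO-Me the value in KEAP1 KO CM was 0.71, the lowest on leaving out any library. In a fit of the 2 NRF2 KO CM groups alone the call there was lost (1.01, adjusted p = 0.0561). The differences between media in this response were not called; the largest was WT CM minus NRF2 KO CM, at -0.44 ± 0.20 (SE, adjusted p = 0.188).

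**Figure D3:**
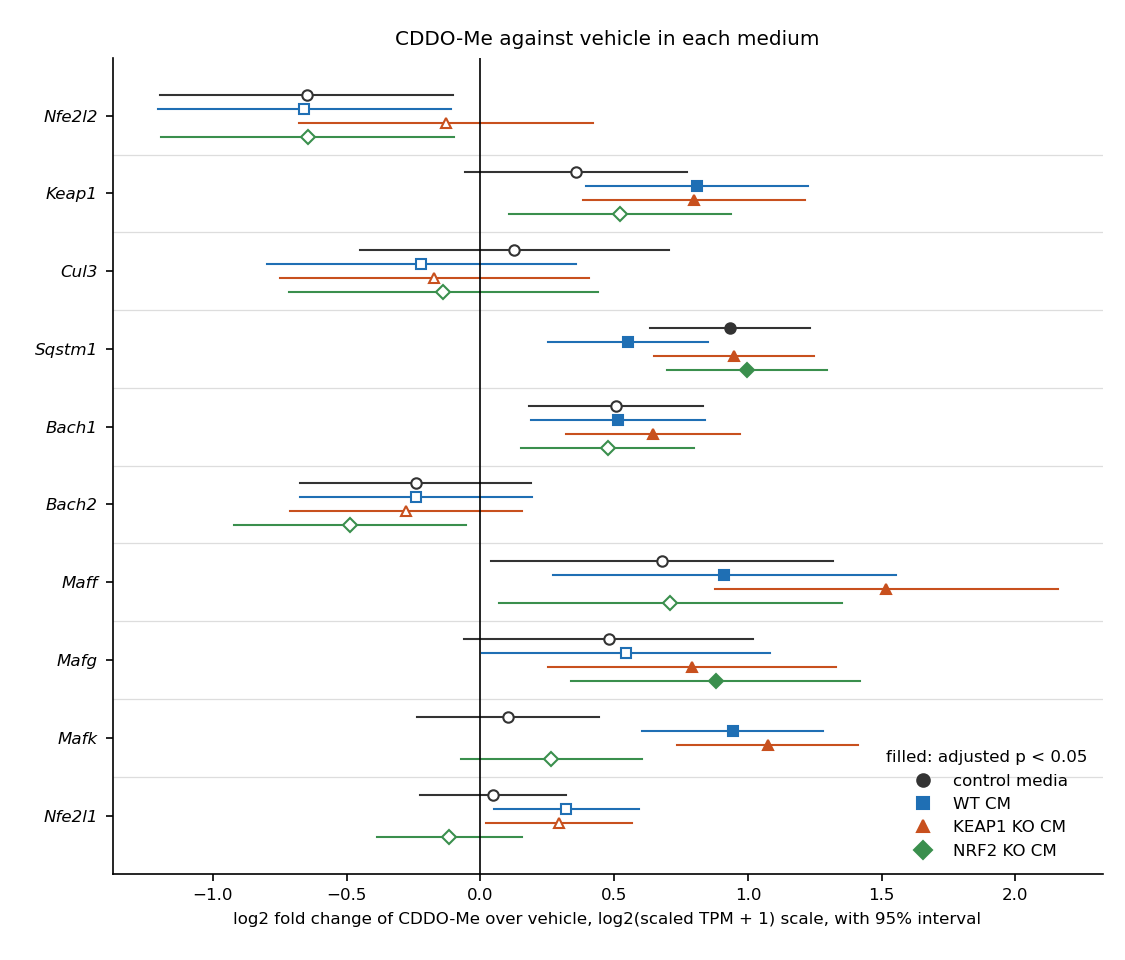
Log2 fold change of CDDO-Me over vehicle (x axis, log2(scaled TPM + 1) scale) for the 10 members (y axis) in each medium, from limma with all 24 libraries; lines are 95% intervals and filled symbols have an adjusted p under 0.05. Sqstm1 is filled in all 4 media (0.55 to 0.99), and Mafk in WT CM (0.94) and KEAP1 KO CM (1.07) but not in control media (0.10) or NRF2 KO CM (0.26).

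Bach1, the repressor that competes with NRF2 for small Maf partners, was higher with CDDO-Me in every medium. It was at 42.5, 41.5 and 49.4 TPM in control media/vehicle and 63.1, 60.7 and 65.9 TPM in control media/CDDO-Me, and at 49.2, 49.1 and 59.98 TPM in WT CM/vehicle and 66.4, 63.6 and 80.7 TPM in WT CM/CDDO-Me. In KEAP1 KO CM it was at 50.1, 49.0 and 60.7 TPM and 75.2, 63.9 and 84.7 TPM, and in NRF2 KO CM at 42.0, 45.1 and 45.6 TPM and 61.0, 59.0 and 65.2 TPM. No treated group overlapped the vehicle group of its medium, and the third replicate was the highest library in each of the 8 groups. The log2 fold change passed the test in WT CM, at 0.51 ± 0.15 (SE, adjusted p = 0.0162), and KEAP1 KO CM, at 0.65 ± 0.15 (SE, adjusted p = 0.003), and was of like size in control media, at 0.51 ± 0.15 (SE, adjusted p = 0.0619), and NRF2 KO CM, at 0.48 ± 0.15 (SE, adjusted p = 0.0602), where it did not pass. The call in WT CM was lost when the first or second WT CM/vehicle replicate or the third WT CM/CDDO-Me replicate was left out, with an adjusted p of up to 0.0986. With both libraries left out Bach1 was also called in control media, at 0.52 (adjusted p = 0.0123), and remained uncalled in NRF2 KO CM, at 0.48 (adjusted p = 0.0727). A limma fit of all 24 libraries with a block for replicate number called Bach1 in both of these media. Its values were 0.51 (adjusted p = 4.73e-05) in control media and 0.48 (adjusted p = 6.41e-05) in NRF2 KO CM. The labels do not say what a replicate number stands for.

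Bach2, the second repressor of the pair and best known in lymphocytes, was close to the floor of the data. Its levels were 0.636, 1.40 and 1.01 TPM in control media/vehicle, 0.659, 0.335 and 0.383 TPM in WT CM/vehicle, 0.347, 0.3999 and 0.277 TPM in KEAP1 KO CM/vehicle and 0.570, 0.731 and 1.28 TPM in NRF2 KO CM/vehicle. With CDDO-Me they were 1.35, 0.516 and 0.329 TPM in control media, 0.131, 0.0919 and 0.445 TPM in WT CM, 0.0668, 0.0984 and 0.0896 TPM in KEAP1 KO CM and 0.376, 0.271 and 0.286 TPM in NRF2 KO CM. Only control media/vehicle, control media/CDDO-Me and NRF2 KO CM/vehicle had libraries above 1 TPM, so Bach2 passed the filter through groups where it was high. Calls of it as lower in other groups were partly set by that filter. The treated group lay wholly below the vehicle group in KEAP1 KO CM and NRF2 KO CM and overlapped it in the other 2. Averaged over the media Bach2 fell by 0.31 ± 0.10 (SE, adjusted p = 0.0214) on the log2(TPM + 1) scale, which understates changes at such low levels, and no single medium was called. The call was lost without the 3 libraries named above (-0.26, adjusted p = 0.0606). The B cell marker list summed to 0.536 to 2.65 TPM over the libraries, and its part in these values was not tested.

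The small Mafs, the partners that NRF2 and the BACH proteins share, were led by Mafg, the most abundant of them. It was at 113, 102 and 91.6 TPM in control media/vehicle and 149, 145 and 131 TPM in control media/CDDO-Me, and at 78.4, 71.2 and 78.1 TPM in WT CM/vehicle and 104, 109.7 and 94.7 TPM in WT CM/CDDO-Me. BMDMs in KEAP1 KO CM had it at 84.3, 80.8 and 78.6 TPM and 141, 133 and 104 TPM, and in NRF2 KO CM at 97.1, 92.7 and 31.0 TPM and 137, 164 and 78.0 TPM. The treated libraries were above the vehicle libraries in the first 3 media, and in NRF2 KO CM the third replicate of each group was its lowest. The log2 fold change was 0.79 ± 0.26 (SE, adjusted p = 0.0252) in KEAP1 KO CM and 0.88 ± 0.26 (SE, adjusted p = 0.0347) in NRF2 KO CM, where it passed, and 0.48 ± 0.26 (SE, adjusted p = 0.402) in control media and 0.54 ± 0.26 (SE, adjusted p = 0.137) in WT CM, where it did not. The NRF2 KO CM value was 0.43 (adjusted p = 0.118) without the third vehicle replicate, and the call was also lost without the first or the second CDDO-Me replicate (adjusted p up to 0.153). In KEAP1 KO CM the call was lost without the second or the third vehicle replicate or the first or second CDDO-Me replicate (adjusted p up to 0.0981). With no scaling between libraries the calls in KEAP1 KO CM (0.62, adjusted p = 0.133) and NRF2 KO CM (0.87, adjusted p = 0.0794) were lost, as they were with no filter on low values (adjusted p = 0.0649 and 0.0729), and in NRF2 KO CM also in a fit of its groups alone (adjusted p = 0.614). With both libraries left out Mafg was called in all 4 media, from 0.49 in control media to 0.82 in KEAP1 KO CM.

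Maff, the least abundant of the small Mafs, was at 6.28, 6.00 and 5.92 TPM in control media/vehicle and 10.3, 12.1 and 8.74 TPM in control media/CDDO-Me. In WT CM it was at 4.63, 4.21 and 4.13 TPM with vehicle and 9.14, 9.69 and 6.51 TPM with CDDO-Me. In KEAP1 KO CM it was at 5.45, 5.10 and 5.85 TPM and 24.9, 16.2 and 9.21 TPM, the highest group mean and the widest spread of the 8. In NRF2 KO CM it was at 7.37, 8.85 and 2.72 TPM and 13.2, 13.1 and 5.62 TPM. In the first 3 media the groups did not overlap. The log2 fold change was 1.52 ± 0.31 (SE, adjusted p = 0.000647) in KEAP1 KO CM and 0.91 ± 0.31 (SE, adjusted p = 0.0307) in WT CM, against 0.68 ± 0.31 (SE, adjusted p = 0.267) in control media and 0.71 ± 0.31 (SE, adjusted p = 0.181) in NRF2 KO CM, where it was 0.34 without the third vehicle replicate. Left without its first CDDO-Me replicate, KEAP1 KO CM gave 1.18, the lowest value on leaving out any library, and the call held. The call in WT CM was lost without any 1 of the 3 vehicle replicates or the first or second CDDO-Me replicate (adjusted p up to 0.1). It was also lost with no scaling (0.81, adjusted p = 0.0827) and with no filter (0.93, adjusted p = 0.0605).

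Mafk was the only member whose response to CDDO-Me differed between media by the test with all 24 libraries. In control media it was at 25.5, 21.3 and 22.9 TPM with vehicle and 25.2, 24.4 and 25.1 TPM with CDDO-Me, and the groups overlapped. In WT CM it went from 21.2, 19.3 and 21.3 TPM with vehicle to 35.6, 35.3 and 41.9 TPM with CDDO-Me, and in KEAP1 KO CM from 19.2, 19.1 and 21.7 TPM to 36.3, 35.7 and 43.3 TPM. These treated groups lay above every library of the other 6 groups. BMDMs in NRF2 KO CM had it at 20.8, 22.3 and 10.7 TPM and 24.2, 21.9 and 16.6 TPM, and the groups overlapped. Mafk rose by 0.94 ± 0.16 (SE, adjusted p = 0.000128) in WT CM and by 1.07 ± 0.16 (SE, adjusted p = 2.89e-05) in KEAP1 KO CM, against 0.10 ± 0.16 (SE, adjusted p = 0.926) in control media and 0.26 ± 0.16 (SE, adjusted p = 0.4) in NRF2 KO CM, where it was 0.0229 without the third vehicle replicate and 0.13 (adjusted p = 0.662) without the 2 libraries.

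The differences between these responses were tested as interactions. The CDDO-Me effect on Mafk was larger in WT CM than in control media by 0.84 ± 0.23 (SE, adjusted p = 0.0153), and larger in KEAP1 KO CM than in control media by 0.97 ± 0.23 (SE, adjusted p = 0.0054). It was larger in KEAP1 KO CM than in NRF2 KO CM by 0.81 ± 0.23 (SE, adjusted p = 0.0221), and the difference of WT CM from NRF2 KO CM, 0.68 ± 0.23 (SE, adjusted p = 0.0571), did not pass with all libraries and passed without the 2, at 0.86 (adjusted p = 0.000795). WT CM and KEAP1 KO CM were not told apart (KEAP1 KO CM minus WT CM 0.13, 95% interval -0.35 to 0.61), nor were NRF2 KO CM and control media (0.16, 95% interval -0.32 to 0.64). The KEAP1 KO CM minus NRF2 KO CM call was lost without the second KEAP1 KO CM/vehicle replicate, the first or second NRF2 KO CM/vehicle replicate or the third KEAP1 KO CM/CDDO-Me replicate (adjusted p up to 0.068). With no scaling between libraries the differences WT CM minus control media (0.74, adjusted p = 0.0685) and KEAP1 KO CM minus NRF2 KO CM (0.65, adjusted p = 0.12) did not pass, and the second was also lost with no filter (adjusted p = 0.0728) and in a fit of its 4 groups alone (0.145). The dendritic cell list was at 46.9 TPM or more in the same 6 libraries with the highest Mafk, and its part in the Mafk values was not tested.

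By count, 1 member (Mafk) passed the interaction of WT CM minus control media, where 15% of all genes passed in either direction; 1 (Mafk) passed KEAP1 KO CM minus control media (14.7%), and 1 (Mafk) KEAP1 KO CM minus NRF2 KO CM (12.7%). In WT CM minus NRF2 KO CM 0 passed in limma, with 3 at an unadjusted p under 0.05 (13.3% of all genes passed). In NRF2 KO CM minus control media 0 passed, with 0 at an unadjusted p under 0.05, and 0 of all genes passed (0%), as in KEAP1 KO CM minus WT CM (0%; 0 members at an unadjusted p under 0.05). With those 2 libraries left out, Keap1 joined Mafk in each of the first 3 and in WT CM minus NRF2 KO CM; Cul3 was also called in WT CM and KEAP1 KO CM minus control media, and Maff in KEAP1 KO CM minus control media. The shares of all genes called then were 28.9% and 29.8% for WT CM and KEAP1 KO CM minus control media and 21.7% and 21.4% for WT CM and KEAP1 KO CM minus NRF2 KO CM.

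Nfe2l1, the relative of NRF2 that drives proteasome genes, did not pass the test for CDDO-Me. It was at 103, 109 and 85.0 TPM in control media/vehicle and 109.8, 108 and 87.8 TPM in control media/CDDO-Me, and at 108, 109.8 and 103 TPM in WT CM/vehicle and 120.4, 121 and 129 TPM in WT CM/CDDO-Me. BMDMs in KEAP1 KO CM had it at 121, 109.8 and 122 TPM and 148, 115 and 123 TPM, and in NRF2 KO CM at 85.9, 105 and 112 TPM and 97.8, 94.6 and 84.4 TPM. The treated and vehicle groups did not overlap in WT CM and overlapped in the other media. The log2 fold changes, from -0.12 ± 0.13 (SE, adjusted p = 0.7) in NRF2 KO CM to 0.32 ± 0.13 (SE, adjusted p = 0.0761) in WT CM, did not pass with all libraries. Without the 2 libraries WT CM passed, at 0.37 (adjusted p = 0.00969), as did KEAP1 KO CM, at 0.32 (adjusted p = 0.0211).

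The groups ran in different orders for the members. Keap1 was highest in KEAP1 KO CM/CDDO-Me, at 62.4 ± 1.87 TPM (SD, n = 3), and WT CM/CDDO-Me, at 61.7 ± 0.616, which overlapped, then came a gap to control media/CDDO-Me, at 47.2 ± 0.711, followed by NRF2 KO CM/CDDO-Me, at 42.6 ± 11.7, KEAP1 KO CM/vehicle, at 40.00 ± 0.837, WT CM/vehicle, at 37.6 ± 1.32, control media/vehicle, at 36.7 ± 1.38, and NRF2 KO CM/vehicle, at 31.2 ± 13.9, with a second gap between KEAP1 KO CM/vehicle and WT CM/vehicle. Mafk had the same pair on top, at 38.4 ± 4.20 and 37.6 ± 3.74 TPM, and a gap only below them, to control media/CDDO-Me at 24.9 ± 0.443 TPM. Sqstm1 was highest in control media/CDDO-Me, at 855 ± 47.3 TPM, which overlapped NRF2 KO CM/CDDO-Me, at 814 ± 34.4, and gaps followed to KEAP1 KO CM/CDDO-Me, at 564 ± 159, and WT CM/CDDO-Me, at 454 ± 9.84. The vehicle groups of Sqstm1 came last, from 449 ± 5.24 TPM in control media to 321 ± 9.07 TPM in KEAP1 KO CM, each overlapping its neighbor. Cul3 was lowest in WT CM/CDDO-Me, at 52.1 ± 2.17 TPM, below KEAP1 KO CM/CDDO-Me, at 60.7 ± 5.04 TPM, without overlap, with another gap between control media/vehicle, at 71.0 ± 5.14, and WT CM/vehicle, at 65.8 ± 0.858. Nfe2l1 was highest in KEAP1 KO CM/CDDO-Me, at 129 ± 17.5 TPM, with 1 gap, between KEAP1 KO CM/vehicle, at 118 ± 6.88, and WT CM/vehicle, at 107 ± 3.72. Maff and Mafg were lower in KEAP1 KO CM/vehicle, at 5.46 ± 0.375 and 81.2 ± 2.86 TPM, than in control media/vehicle, at 6.07 ± 0.192 and 102 ± 10.7 TPM, and lower again in WT CM/vehicle, at 4.32 ± 0.267 and 75.9 ± 4.10 TPM, without overlap. For Bach1, Bach2 and Nfe2l2 each group overlapped the next. These orders and gaps are in TPM without scaling between libraries. On scaled values KEAP1 KO CM/vehicle and WT CM/vehicle differed by 0.014 for Keap1, 0.023 for Mafg and 0.065 for Nfe2l1 on the log2 scale. For Maff the difference was 0.22, and 0 of all genes passed between these 2 groups in limma.

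Without the drug, few of the 10 genes passed the test between media. Of the members 0 passed for WT CM against control media under vehicle in limma, with 1 at an unadjusted p under 0.05, while 7.34% of all genes passed. For KEAP1 KO CM against control media 1 passed, Sqstm1 (7.96% of all genes), which was lower, with a log2 difference of -0.49 ± 0.14 (SE, adjusted p = 0.0385); its call was lost without any 1 of the 6 libraries compared (adjusted p up to 0.127) and with no filter (adjusted p = 0.0604). For NRF2 KO CM against control media 0 passed, with 2 at an unadjusted p under 0.05 (Mafg and Mafk), and 0.00732% of all genes. Without the 2 libraries that stand apart Mafg went from -0.60 to -0.14 and Mafk from -0.39 to -0.14. For WT CM against NRF2 KO CM 0 passed, with 2 at an unadjusted p under 0.05 (Nfe2l2 and Keap1), and 10.7% of all genes. Without the same libraries Keap1 went from 0.42 to 0.036 and Nfe2l2 from -0.76 to -0.43. For KEAP1 KO CM against NRF2 KO CM 1 passed, Nfe2l2 (8.82% of all genes). For KEAP1 KO CM against WT CM 0 passed, with 0 at an unadjusted p under 0.05, and 0 of all genes (0%).

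The Nfe2l2 call in KEAP1 KO CM against NRF2 KO CM under vehicle, a log2 difference of -0.88 ± 0.26 (SE, adjusted p = 0.0403), rested on the third NRF2 KO CM/vehicle replicate at 459 TPM. Without that library the difference was -0.54 (adjusted p = 0.211), and leaving out 1 library was enough to lose the call in 11 of the 24 cases. Among them were the 3 KEAP1 KO CM/vehicle replicates (adjusted p up to 0.108), and for the other 7, the first 2 replicates of control media/vehicle, WT CM/vehicle and control media/CDDO-Me and the second of WT CM/CDDO-Me, the adjusted p was up to 0.0517. After the 2 libraries were dropped, Nfe2l2 was no longer called there, at -0.54 (adjusted p = 0.0845). Against control media under vehicle, the calls without the 2 libraries were 1 for WT CM (Mafg; 19.1% of all genes) and 4 for KEAP1 KO CM (Nfe2l2, Bach2, Mafg and Sqstm1; 21.8%). The call was also lost with no filter (adjusted p = 0.0677) and in a fit of the groups compared (adjusted p = 0.322). In WT CM/vehicle and KEAP1 KO CM/vehicle every library was lower than every control media/vehicle library for Nfe2l2, Mafg, Sqstm1 and Maff. Of these only Sqstm1 in KEAP1 KO CM was called with all 24 libraries. These levels are TPM without scaling between libraries. The share of all genes that separated in this way was not counted, so the separation cannot be read as particular to these members.

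With CDDO-Me present, for WT CM against control media 4 members passed, with 26.8% of all genes: Keap1 was higher, at 0.55 ± 0.20 (SE, adjusted p = 0.0474), as were Mafk, at 0.74 ± 0.16 (SE, adjusted p = 0.00166), and Nfe2l1, at 0.45 ± 0.13 (SE, adjusted p = 0.0127), and Sqstm1 was lower, at -0.74 ± 0.14 (SE, adjusted p = 0.000552). For KEAP1 KO CM against control media 4 passed, with 22.5% of all genes: Mafk, at 0.76 ± 0.16 (SE, adjusted p = 0.0016), and Nfe2l1, at 0.49 ± 0.13 (SE, adjusted p = 0.00882), were higher, and Sqstm1, at -0.48 ± 0.14 (SE, adjusted p = 0.0197), and Bach2, at -0.60 ± 0.21 (SE, adjusted p = 0.0434), were lower. Bach2 passed the filter only through libraries of control media and NRF2 KO CM/vehicle, so its call as lower here was partly set by the filter. For NRF2 KO CM against control media 0 passed in limma, with 0 at an unadjusted p under 0.05, and 0.154% of all genes. So under CDDO-Me p62 mRNA was lower, and Mafk and Nfe2l1 mRNA higher, in WT CM and KEAP1 KO CM than in control media.

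Against NRF2 KO CM under CDDO-Me, Keap1, Mafk and Nfe2l1 were higher and Sqstm1 was lower in both WT CM and KEAP1 KO CM. For WT CM 5 passed, with 25.9% of all genes: Keap1 (0.70, adjusted p = 0.0124), Mafk (0.97, adjusted p = 0.000137) and Nfe2l1 (0.56, adjusted p = 0.00289) were higher, and Nfe2l2 (-0.77, adjusted p = 0.0352) and Sqstm1 (-0.70, adjusted p = 0.00106) lower. For KEAP1 KO CM 4 passed, with 20.9%: Keap1 (0.71, adjusted p = 0.0143), Mafk (0.99, adjusted p = 0.000137) and Nfe2l1 (0.60, adjusted p = 0.00208) higher and Sqstm1 (-0.44, adjusted p = 0.0355) lower. For KEAP1 KO CM against WT CM 0 passed in limma, with 1 at an unadjusted p under 0.05 (Maff), and 0.0512% of all genes; the 95% interval of the log2 difference was -0.41 to 0.42 for Keap1 and -0.32 to 0.35 for Mafk. Control media and NRF2 KO CM enter several of these comparisons and are shared between them.

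Several of these calls were lost when 1 library was left out, some of them with an adjusted p close to 0.05 at the start. Keap1 in WT CM against control media had an adjusted p of 0.0474 and was lost in 16 of 24 leave-one-out fits (up to 0.121), among them those without any of the 6 libraries compared; without the 2 libraries it was 0.57 (adjusted p = 8.96e-08). Bach2 in KEAP1 KO CM against control media was lost in 13 (up to 0.271, without the first control media/CDDO-Me replicate at 1.35 TPM, where the difference was -0.36). Without the third NRF2 KO CM/CDDO-Me replicate the WT CM difference from NRF2 KO CM was lost for Nfe2l2 (adjusted p = 0.173) and Keap1 (0.0678), and the KEAP1 KO CM difference for Keap1 (0.0792) and Sqstm1 (0.125). Sqstm1 in KEAP1 KO CM was lost against control media without the second or the third KEAP1 KO CM/CDDO-Me or the third control media/CDDO-Me replicate (up to 0.125), and against NRF2 KO CM without the second or the third KEAP1 KO CM/CDDO-Me or first NRF2 KO CM/CDDO-Me replicate (up to 0.181). The Nfe2l2 call was also lost without the second or the third WT CM/CDDO-Me replicate (up to 0.135), Keap1 in KEAP1 KO CM against NRF2 KO CM without the first KEAP1 KO CM/CDDO-Me replicate (0.0502), and Nfe2l1 against control media without the third control media or the third WT CM replicate in WT CM (up to 0.0588) and the first KEAP1 KO CM replicate in KEAP1 KO CM (0.0662), all under CDDO-Me. Leaving out both libraries that stand apart, 6 members were called for WT CM against control media (Keap1, Cul3, Mafg, Mafk, Nfe2l1 and Sqstm1; 44.1% of all genes), 8 for KEAP1 KO CM (all but Nfe2l2 and Mafg; 40%), 8 for WT CM against NRF2 KO CM (all but Bach2 and Maff; 40.5%) and 4 for KEAP1 KO CM against NRF2 KO CM (Keap1, Bach1, Mafk and Nfe2l1; 34.1%). With no scaling between libraries 4 calls under CDDO-Me were lost: Keap1 (0.38, adjusted p = 0.261) and Nfe2l1 (0.28, adjusted p = 0.0869) in WT CM against control media, and Keap1 in WT CM (0.56, adjusted p = 0.0859) and KEAP1 KO CM (0.58, adjusted p = 0.0877) against NRF2 KO CM. The Keap1 call in WT CM against control media was lost as well with RLE scaling (adjusted p = 0.0566), no filter (0.103), a filter at 5 TPM (0.0807), a pseudocount of 0.1 (0.0514) and no variance trend (0.052). With no filter Nfe2l2 in WT CM (adjusted p = 0.0565) and Sqstm1 in KEAP1 KO CM (adjusted p = 0.0554) against NRF2 KO CM were lost, and Nfe2l2 also in a fit of its groups alone (adjusted p = 0.0543). In fits of the compared groups alone Sqstm1 was lost for KEAP1 KO CM against control media (adjusted p = 0.117) and NRF2 KO CM (0.271).

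Ratios of members within a library do not depend on scaling between libraries, and are given as a description. The ratio of Nfe2l2 to Keap1 TPM was 6.98 ± 0.546 (SD, n = 3) in control media/vehicle and 3.44 ± 0.294 in control media/CDDO-Me. It was 4.85 ± 0.259 in WT CM/vehicle and 1.74 ± 0.225 in WT CM/CDDO-Me, and 4.40 ± 0.264 and 2.38 ± 0.877 in KEAP1 KO CM. In these 3 media the ratio was lower in every treated library than in every vehicle library. In NRF2 KO CM it ranged from 6.16 to 30.4 with vehicle and from 3.52 to 8.74 with CDDO-Me, with the third replicate at the top of both; without those it averaged 6.74 and 3.64, close to control media. The ratio of Cul3 to Keap1 was 1.75 ± 0.0854 in WT CM/vehicle and 0.845 ± 0.0268 in WT CM/CDDO-Me, and 1.93 ± 0.06998 and 0.973 ± 0.0612 in KEAP1 KO CM, against 1.94 ± 0.201 and 1.64 ± 0.0618 in control media. The ratio of Bach1 to Nfe2l2 was 0.175 ± 0.0337 in control media/vehicle and 0.392 ± 0.0432 in control media/CDDO-Me, and reached 0.672 ± 0.189 in WT CM/CDDO-Me and 0.552 ± 0.232 in KEAP1 KO CM/CDDO-Me; Nfe2l2 mRNA was the more abundant of both in every library.

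The small Maf mRNAs summed to 131 ± 12.4 TPM in control media/vehicle and 177 ± 10.4 TPM in control media/CDDO-Me, to 101 ± 5.32 and 149 ± 5.77 TPM in WT CM, to 107 ± 2.07 and 182 ± 23.1 TPM in KEAP1 KO CM, and to 97.8 ± 46.3 and 158 ± 51.6 TPM in NRF2 KO CM (SD, n = 3). Mafg made up 66.2% to 82.5% of that sum. The share of Mafk was 17.7 ± 1.23% in control media/vehicle and 14.1 ± 0.966% in control media/CDDO-Me, and 20.4 ± 0.133% and 25.3 ± 3.47% in WT CM, so it lay lower with the drug in control media and higher in WT CM, without overlap in either. In KEAP1 KO CM it was 18.7 ± 1.48% and 21.6 ± 5.24%, which overlapped, and the share of Maff there reached 12.3% in the first CDDO-Me replicate.

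**Figure D4:**
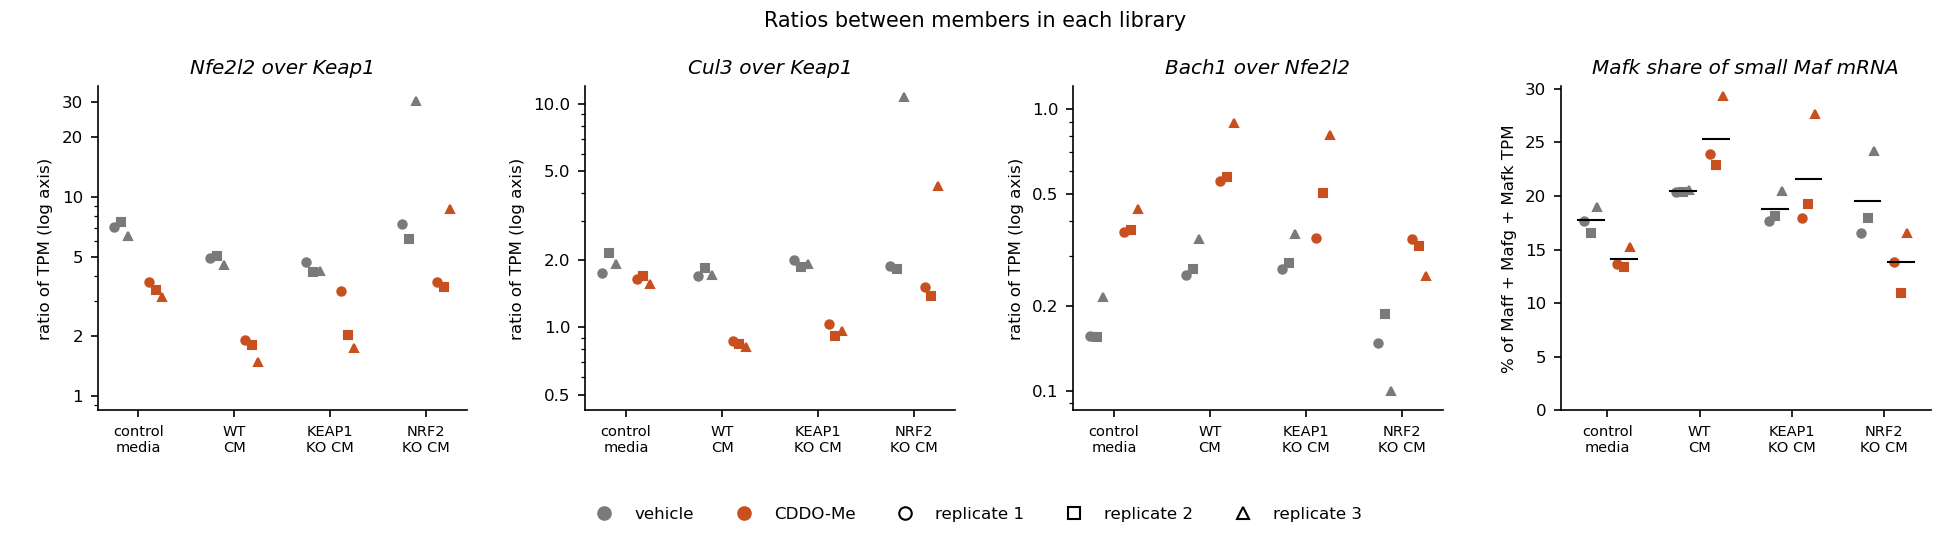
Ratios of TPM within each library (first 3 panels, log axes) and the percentage of small Maf TPM that is Mafk (last panel, from 0; black bars are means of 3), by medium and treatment, with shapes for the replicate number. Nfe2l2 over Keap1 is 1.49 to 1.92 in WT CM/CDDO-Me against 6.39 to 7.46 in control media/vehicle, and the third NRF2 KO CM/vehicle replicate stands at 30.4.

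Genes that NRF2 switches on rose with CDDO-Me in each medium. Of 24 NRF2 target genes listed, 23 passed the filter and Ces2g did not; CDDO-Me raised 20 of the 23 in control media, 17 in WT CM, 19 in KEAP1 KO CM and 21 in NRF2 KO CM and lowered 0 in each, against 3.07%, 13.9%, 14.5% and 4.49% of all genes that rose. After both libraries that stand apart were left out, the numbers that rose were 22, 19, 19 and 21 (7.41%, 23.6%, 23.6% and 4.97% of all genes), and 1 (Ftl1) fell, in WT CM. Their median log2 fold change was 1.77, 1.52, 1.92 and 2.05 in these media, with all-gene medians of -0.01, -0.03, -0.02 and -0.01. Gclm, a subunit of the enzyme that starts glutathione synthesis, was at 77.9, 81.7 and 101 TPM in control media/vehicle and 1161, 1084 and 1471 TPM in control media/CDDO-Me, up by 3.82 ± 0.28 (SE, adjusted p = 5.45e-08). Nqo1, a quinone reductase, was at 2.63, 2.51 and 4.96 TPM and 104, 79.0 and 219 TPM (4.84 ± 0.33 SE, adjusted p = 2.1e-08). Neither pair of groups overlapped. Hmox1, which breaks down heme and is the classic BACH1 target, was at 365, 382 and 368 TPM and 989, 939.6 and 1394 TPM in control media (1.55 ± 0.18 SE, adjusted p = 1.27e-05) and at 350.4, 369.8 and 318 TPM and 564, 533 and 537 TPM in WT CM (0.77 ± 0.18 SE, adjusted p = 0.00276). So Bach1 mRNA and the mRNA of its best known target were both higher with the drug.

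The rise of the targets was not equal in the media. Gclc, the catalytic partner of Gclm, rose in control media (2.10 ± 0.28 SE, adjusted p = 6.49e-05), KEAP1 KO CM (1.09 ± 0.28 SE, adjusted p = 0.00529) and NRF2 KO CM (2.46 ± 0.28 SE, adjusted p = 7.08e-06) and was at 0.66 ± 0.28 (SE, adjusted p = 0.0939) in WT CM. The difference of its response, WT CM minus control media, was -1.44 ± 0.40 (SE, adjusted p = 0.0173). Txnrd1, thioredoxin reductase, had such a difference of -0.69 ± 0.22 (SE, adjusted p = 0.0403) and Hmox1 of -0.79 ± 0.26 (SE, adjusted p = 0.0432). In all, the response of 5 targets was smaller and that of 1 (Txn1) larger in WT CM than in control media (15% of all genes passed in either direction). For KEAP1 KO CM minus control media 1 was smaller and 3 larger, a share of the 23 near that of all genes (14.7%). For NRF2 KO CM minus control media 0 of 23 differed in limma, with 0 at an unadjusted p under 0.05, and 0% of all genes passed. Leaving both out, 8 were smaller and 3 larger in WT CM (12.5% and 16.4% of all genes), and 4 smaller and 4 larger in KEAP1 KO CM (13.4% and 16.4%). Under CDDO-Me 11 targets were lower and 1 higher in WT CM than in control media (26.8% of all genes passed in either direction), or 14 and 2 without the 2 libraries (20.2% and 23.8%). Between KEAP1 KO CM and WT CM under CDDO-Me 0 targets passed in limma, and 0.0512% of all genes did. Of the 23 targets 21 had a positive difference there and 7 an unadjusted p under 0.05, against 570 of the 13661 genes tested. Srxn1, sulfiredoxin, was at 582, 541 and 699 TPM in control media/CDDO-Me and 247, 217 and 199.9 TPM in WT CM/CDDO-Me. Slc7a11, the cystine transporter, was at 18.6, 17.1 and 28.8 TPM and 11.9, 9.45 and 11.6 TPM in the same groups and at 46.2, 19.2 and 26.3 TPM in KEAP1 KO CM/CDDO-Me, where the first replicate was the highest as it was for Nfe2l2, Sqstm1 and Maff. Osgin1, a growth-restraining stress gene, rose in control media (1.26 ± 0.34 SE, adjusted p = 0.0325) and NRF2 KO CM (1.13 ± 0.34 SE, adjusted p = 0.043) and was at 0.12 ± 0.34 (SE, adjusted p = 0.862) in WT CM.

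**Figure D5:**
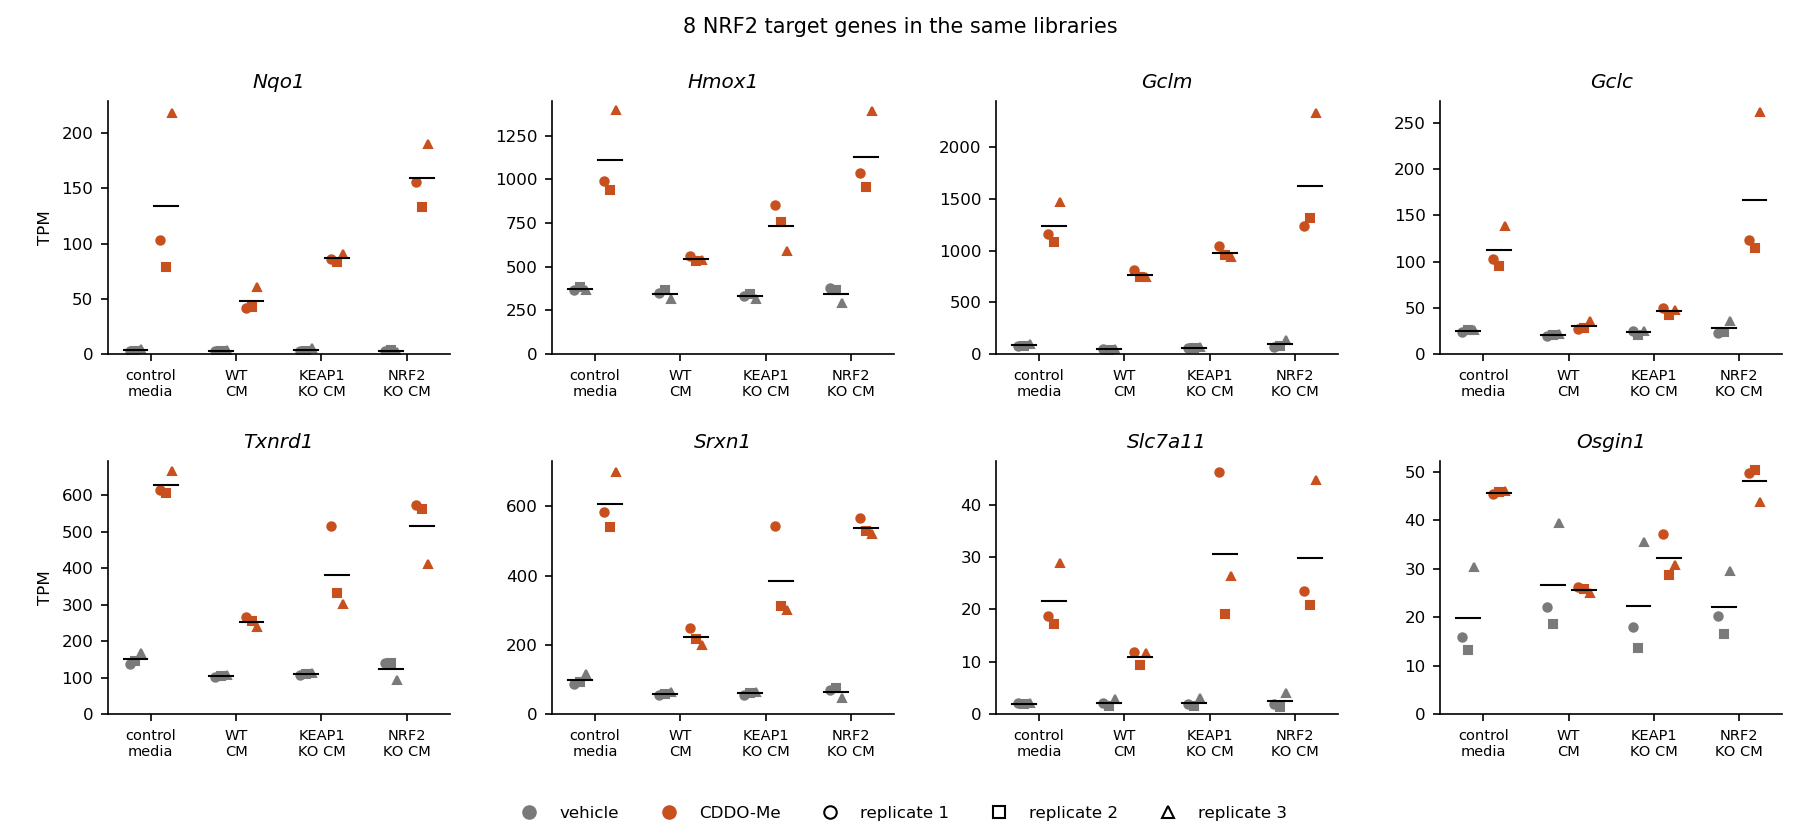
TPM (y axes, from 0) of 8 NRF2 target genes in the 24 libraries by medium (x axes) and treatment, drawn as for the members; black bars are means of 3. Gclm is at 43.5 to 137 TPM with vehicle and 741 to 2331 TPM with CDDO-Me.

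Of 19 genes of NRF2 turnover and its coactivators, all tested, 0 passed for CDDO-Me in control media in limma, with 2 at an unadjusted p under 0.05, 2 rose and 1 fell in WT CM, 1 rose in KEAP1 KO CM and 1 rose in NRF2 KO CM. The shares of all genes that rose and fell were 13.9% and 13.9% in WT CM, 14.5% and 14.2% in KEAP1 KO CM and 4.49% and 5.28% in NRF2 KO CM, so these counts were near or under the background. In control media these shares were 3.07% and 2.94%. In the 22 other libraries 2 rose in control media, 6 rose and 1 fell in WT CM, 5 rose and 1 fell in KEAP1 KO CM and 2 rose in NRF2 KO CM. Of all genes 7.41%, 23.6%, 23.6% and 4.97% rose in that fit in these media. In WT CM 43.7% and in KEAP1 KO CM 45.3% of all genes were called in either direction. Trim21 and Ep300 were called higher in both WT CM and KEAP1 KO CM. Trim21, a ubiquitin ligase that acts on p62 and is an interferon-responsive gene, rose by 2.08 ± 0.12 (SE, adjusted p = 8.43e-11) in WT CM and 2.03 ± 0.12 (SE, adjusted p = 1.2e-10) in KEAP1 KO CM. Ep300, a histone acetyltransferase that also acts on NRF2, rose by 0.43 ± 0.12 (SE, adjusted p = 0.0122) in WT CM. Rxra, a nuclear receptor that binds NRF2, was at -0.28 ± 0.0989 (SE, adjusted p = 0.0428) in WT CM and 0.52 ± 0.0989 (SE, adjusted p = 0.00139) in NRF2 KO CM, opposite directions that both passed. Of 6 genes that process NFE2L1, the protease gene Ddi2 rose in WT CM (0.44 ± 0.10 SE, adjusted p = 0.00219) and KEAP1 KO CM (0.38 ± 0.10 SE, adjusted p = 0.00678), Vcp rose in NRF2 KO CM (0.44 ± 0.0975 SE, adjusted p = 0.00488), and Sel1l, of the endoplasmic reticulum degradation machinery, fell in all 3 cancer cell media (for KEAP1 KO CM -0.32 ± 0.0803 SE, adjusted p = 0.00409); in control media 0 of 6 passed in limma, with 1 at an unadjusted p under 0.05. Fitted without the 2 libraries, Sel1l was no longer called in NRF2 KO CM, and Vcp was called higher in all 4 media.

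Of 13 autophagy partners of p62, Gabarapl1 rose in control media (0.61 ± 0.17 SE, adjusted p = 0.0396), Map1lc3b in NRF2 KO CM (0.35 ± 0.0975 SE, adjusted p = 0.0244), and Optn, another autophagy receptor, fell in WT CM (-1.01 ± 0.20 SE, adjusted p = 0.000453), KEAP1 KO CM (-0.66 ± 0.20 SE, adjusted p = 0.0142) and NRF2 KO CM (-0.66 ± 0.20 SE, adjusted p = 0.0383); the other partners did not pass in a single medium. In the 22 other libraries Optn was called lower in all 4 media, and Map1lc3b was called higher in control media and not in NRF2 KO CM. Atg5, Gabarapl2, Tax1bp1 and Tbk1 were then called higher in both WT CM and KEAP1 KO CM, where 23.6% of all genes rose in each. With all 24 libraries 3.07% of all genes rose and 2.94% fell in control media, and 13.9% rose and 13.9% fell in WT CM. In KEAP1 KO CM 14.5% rose and 14.2% fell, and in NRF2 KO CM 4.49% rose and 5.28% fell. Sqstm1 rose in each of the 4 media. Among other CNC and large Maf genes, Maf, a macrophage transcription factor, fell in WT CM (-1.18 ± 0.26 SE, adjusted p = 0.00145), KEAP1 KO CM (-1.24 ± 0.26 SE, adjusted p = 0.000821) and NRF2 KO CM (-1.08 ± 0.26 SE, adjusted p = 0.00898). Nfe2, a CNC factor of blood cells, fell in WT CM and KEAP1 KO CM (-1.22 ± 0.31 SE, adjusted p = 0.00518, and -1.46 ± 0.31 SE, adjusted p = 0.00111). Mafa rose in control media (0.94 ± 0.21 SE, adjusted p = 0.00732) and fell in WT CM (-0.62 ± 0.21 SE, adjusted p = 0.0292). Maf fell in WT CM and KEAP1 KO CM, where Maff and Mafk rose. In a fit without the 2 libraries these calls of Maf, Nfe2 and Mafa were made as well, and Maf was also called lower in control media. Under vehicle Nfe2 was higher in WT CM than in control media (1.35 ± 0.31 SE, adjusted p = 0.00978).

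Across the 24 libraries, which share groups and the 2 libraries that stand apart, the members followed each other to different degrees; the correlations of log2 values are given as a description. Keap1 and Mafk went together most closely (Pearson r = 0.93), then Maff and Mafg (0.85), and Nfe2l2 and Keap1 went opposite ways (-0.81). Sqstm1 and Mafk, both raised by CDDO-Me, had an r of 0.29. Neither these values nor those below were computed without the 2 libraries, where Keap1 was lowest and Cul3 highest. How far those libraries set them was not tested. The genes whose pattern was most like that of each member over the 24 libraries, among the 13661 tested, were Rnf19a (0.91), Sh3bgrl (0.90) and Brd9 (0.90) for Nfe2l2, Hsd3b7 (0.97), Tspo (0.97) and Mvp (0.97) for Keap1, and Irf5 (0.98), Ppt2 (0.98) and Capn1 (0.98) for Mafk. For Sqstm1 they were Dapk1 (0.96), Zscan29 (0.96) and Mturn (0.96), for Bach1 Mmp19 (0.95), Mcub (0.94) and Cisd2 (0.94), and for Cul3 Cbll1 (0.96), Ube2v2 (0.96) and Tmf1 (0.96). For Maff they were Nfkbie (0.94), Htr1b (0.92) and Slc2a1 (0.91), for Mafg Fhod1 (0.93), Chpf2 (0.93) and Doc2g (0.93), for Nfe2l1 Gvin-ps2 (0.89), Irf2 (0.88) and Crem (0.88), and for Bach2 Fgf2 (0.87), Slf2 (0.86) and Osbpl8 (0.78).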

How the data were processed

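RNA of 24 BMDM libraries, 3 in each of 8 groups taken from the labels, was analysed from 1 table of TPM that the authors deposited, made per the labels with kallisto on GRCm39. TPM, a length-corrected share of transcripts, summed to 999365 to 999801 over the named genes of a library, with 1 nameless line of 199 to 635 TPM left out, and keeps no read counts. Values were scaled between libraries by TMM (trims of 30% and 5%), genes above 1 TPM in at least 3 libraries were kept (13661 of 35770), and log2(TPM + 1) was fitted in limma 3.58.1 (R 4.3.3) with 8 group means, a variance trend and 16 residual degrees of freedom. P-values were adjusted by Benjamini-Hochberg over all 13661 genes in each of 23 comparisons, and a call is an adjusted p under 0.05. Fold changes are on the log2(TPM + 1) scale, which understates changes of low genes. Tables and figures were made with Python 3.11.15, pandas 2.3.3 and matplotlib 3.10.9.

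All members, 8 listed NRF2 targets, at most 4 called genes of each other list and the 3 genes most correlated with each member were named. Other list genes named from the fit without 2 libraries were chosen after their values were seen. For 1 listed gene the result is not reported here. The 10 members and the lists were chosen with earlier results of these data known. The fit was tested on simulated data. Other scalings, filters, pseudocounts, weights, a replicate block and left-out libraries were tried.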

Additional observations from a re-analysis of the deposited data

Results flagged for a closer look

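The response of Mafk to CDDO-Me differed between media by a test of the difference itself in limma. The log2 fold change was larger in WT CM than in control media by 0.84, larger in KEAP1 KO CM than in control media by 0.97, and larger in KEAP1 KO CM than in NRF2 KO CM by 0.81. Of all genes 15%, 14.7% and 12.7% passed these tests in either direction. With no scaling between libraries the first (0.74, adjusted p = 0.0685) and the last (0.65, adjusted p = 0.12) did not pass in limma. In both WT CM and KEAP1 KO CM 3 of 3 treated libraries were above every vehicle library of the same medium. That was also so in both media for Keap1, Bach1, Maff, Mafg and Sqstm1, and the share of all genes was not counted.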

How the results depend on the processing

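The numbers of the 10 members called, with the value from all 24 libraries in brackets, changed by more than 1.5 times in the following fits; with pseudocounts of 0.1 and 0.5 and with no variance trend each count stayed within 1.5 times. With RLE scaling, the number called was 2 for CDDO-Me in control media (1). With genes above 5 TPM in at least 3 libraries, the number called was 2 for CDDO-Me in control media (1) and 1 for WT CM against NRF2 KO CM under vehicle (0). With array weights, the number called was 6 for CDDO-Me in control media (1), 8 for CDDO-Me in WT CM (5), 6 for CDDO-Me in NRF2 KO CM (2), 4 for WT CM against control media under vehicle (0), 6 for KEAP1 KO CM against control media under vehicle (1), 5 for WT CM against NRF2 KO CM under vehicle (0), 3 for KEAP1 KO CM against NRF2 KO CM under vehicle (1), 9 for WT CM against control media under CDDO-Me (4), 7 for KEAP1 KO CM against control media under CDDO-Me (4), 1 for NRF2 KO CM against control media under CDDO-Me (0), 8 for WT CM against NRF2 KO CM under CDDO-Me (5) and 1 for KEAP1 KO CM against WT CM under CDDO-Me (0), and for the difference of the CDDO-Me effect 2 in WT CM minus control media (1), 5 in KEAP1 KO CM minus control media (1), 2 in WT CM minus NRF2 KO CM (0) and 3 in KEAP1 KO CM minus NRF2 KO CM (1). With no filter, the number called was 1 for CDDO-Me in NRF2 KO CM (2), 0 for KEAP1 KO CM against control media under vehicle (1) and 0 for KEAP1 KO CM against NRF2 KO CM under vehicle (1), and for the difference of the CDDO-Me effect 0 in KEAP1 KO CM minus NRF2 KO CM (1). With no scaling between libraries, the number called was 2 for CDDO-Me in control media (1), 1 for WT CM against NRF2 KO CM under vehicle (0) and 2 for WT CM against control media under CDDO-Me (4), and for the difference of the CDDO-Me effect 0 in WT CM minus control media (1) and 0 in KEAP1 KO CM minus NRF2 KO CM (1). With only the groups compared in the fit, the number called was 6 for CDDO-Me in control media (1), 9 for CDDO-Me in WT CM (5), 0 for CDDO-Me in NRF2 KO CM (2), 3 for WT CM against control media under vehicle (0), 3 for KEAP1 KO CM against control media under vehicle (1), 0 for KEAP1 KO CM against NRF2 KO CM under vehicle (1) and 7 for WT CM against control media under CDDO-Me (4), and for the difference of the CDDO-Me effect 4 in WT CM minus control media (1), 2 in KEAP1 KO CM minus control media (1) and 0 in KEAP1 KO CM minus NRF2 KO CM (1). Without the 2 libraries with the fewest genes, the number called was 6 for CDDO-Me in control media (1), 9 for CDDO-Me in WT CM (5), 1 for WT CM against control media under vehicle (0), 4 for KEAP1 KO CM against control media under vehicle (1), 0 for KEAP1 KO CM against NRF2 KO CM under vehicle (1), 8 for KEAP1 KO CM against control media under CDDO-Me (4) and 8 for WT CM against NRF2 KO CM under CDDO-Me (5), and for the difference of the CDDO-Me effect 3 in WT CM minus control media (1), 4 in KEAP1 KO CM minus control media (1), 2 in WT CM minus NRF2 KO CM (0) and 2 in KEAP1 KO CM minus NRF2 KO CM (1). Without those 2 and the first KEAP1 KO CM/CDDO-Me replicate (chosen after seeing the data), the number called was 6 for CDDO-Me in control media (1), 9 for CDDO-Me in WT CM (5), 5 for CDDO-Me in NRF2 KO CM (2), 3 for WT CM against control media under vehicle (0), 3 for KEAP1 KO CM against control media under vehicle (1), 3 for WT CM against NRF2 KO CM under vehicle (0), 3 for KEAP1 KO CM against NRF2 KO CM under vehicle (1), 7 for WT CM against control media under CDDO-Me (4), 7 for KEAP1 KO CM against control media under CDDO-Me (4) and 8 for WT CM against NRF2 KO CM under CDDO-Me (5), and for the difference of the CDDO-Me effect 4 in WT CM minus control media (1), 3 in KEAP1 KO CM minus control media (1), 2 in WT CM minus NRF2 KO CM (0) and 2 in KEAP1 KO CM minus NRF2 KO CM (1). Leaving out 1 library at a time, the count ran from 1 to 3 for CDDO-Me in control media, 3 to 8 for CDDO-Me in WT CM, 1 to 4 for CDDO-Me in NRF2 KO CM, 0 to 1 for WT CM against control media under vehicle, 0 to 1 for KEAP1 KO CM against control media under vehicle, 0 to 1 for WT CM against NRF2 KO CM under vehicle, 0 to 2 for KEAP1 KO CM against NRF2 KO CM under vehicle, 2 to 4 for WT CM against control media under CDDO-Me, 2 to 6 for KEAP1 KO CM against control media under CDDO-Me, 3 to 6 for WT CM against NRF2 KO CM under CDDO-Me, 1 to 2 for the CDDO-Me effect WT CM minus control media, 1 to 2 for the CDDO-Me effect KEAP1 KO CM minus control media, 0 to 2 for the CDDO-Me effect WT CM minus NRF2 KO CM and 0 to 3 for the CDDO-Me effect KEAP1 KO CM minus NRF2 KO CM. The causes were not tested, apart from fewer libraries or genes by construction.

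Single members reversed only where their main value had not passed the test. On leaving out 1 library this held for Nfe2l1 CDDO-Me in control media (all libraries 0.05, range -0.0463 to 0.11), Nfe2l2 CDDO-Me in KEAP1 KO CM (all libraries -0.13, range -0.44 to 0.0774), Cul3 CDDO-Me in NRF2 KO CM (all libraries -0.14, range -0.48 to 0.32), Nfe2l1 CDDO-Me in NRF2 KO CM (all libraries -0.12, range -0.24 to 0.0368) and Cul3 CDDO-Me over the mean of the media (all libraries -0.10, range -0.19 to 0.0137). It also held for Bach2 CDDO-Me in control media with array weights (0.0211 against -0.24), Nfe2l1 CDDO-Me in NRF2 KO CM with array weights (0.0764 against -0.12), Cul3 CDDO-Me in NRF2 KO CM without the 2 libraries with the fewest genes (0.00620 against -0.14), Nfe2l1 CDDO-Me in NRF2 KO CM without the 2 libraries with the fewest genes (0.0501 against -0.12), Cul3 CDDO-Me in NRF2 KO CM without those 2 and the first KEAP1 KO CM/CDDO-Me replicate (0.00613 against -0.14) and Nfe2l1 CDDO-Me in NRF2 KO CM without those 2 and the first KEAP1 KO CM/CDDO-Me replicate (0.05003 against -0.12). Bach2 had no value with the stricter filter. TPM keeps no read depth, so the precision of low levels such as those of Bach2 is unknown.

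Groups share replicate numbers, and the library names repeat the same set of numbers in all 8 groups. The labels do not say what a number stands for. Deviations of same-numbered libraries from their group means had a mean correlation of 0.26 over 84 pairs, from 0.0221 to 0.72, with 71 over 0.1. Over 168 pairs with different numbers it was -0.12, and 22 of 24 libraries correlated best with their own number. The main fit had no replicate term. Whether same-numbered libraries share a mouse, culture or day cannot be told from the labels. With the replicate block, the number called was 2 for CDDO-Me in control media (1), 1 for WT CM against control media under vehicle (0), 2 for KEAP1 KO CM against control media under vehicle (1), 2 for WT CM against NRF2 KO CM under vehicle (0), 2 for KEAP1 KO CM against NRF2 KO CM under vehicle (1) and 7 for KEAP1 KO CM against control media under CDDO-Me (4), and for the difference of the CDDO-Me effect 1 in WT CM minus NRF2 KO CM (0), which is Mafk (0.68, adjusted p = 0.0456). Other counts stayed within 1.5 times.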
